A study of Zea mays with 74 samples.

Results

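The regions described here are 464 intergenic stretches of the maize genome at which modern maize and teosinte, its wild ancestor, differed in DNA methylation in the CG context and also in the CHG context, with H standing for A, C or T. They were chosen from the 1545 CG differentially methylated regions (DMRs) between teosinte and modern maize, out of 6389 DMRs of all contexts and comparisons in the series. A CG DMR was taken as intergenic when it was absent from the study's assignment of DMRs to 30 bins along gene bodies and their flanks, and as a member when it overlapped a teosinte-maize CHG DMR by at least 1 bp. The remaining CG DMRs were 289 intergenic ones without a CHG DMR, 305 near a gene with one and 487 near a gene without one.

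The series joined whole-genome bisulfite sequencing (WGBS), which reads the methylation of single cytosines, with whole-genome sequencing (WGS), from which regions of strong allele frequency differentiation (selective sweeps) were found. The modern maize group was 14 inbred lines whose methylomes were published before and are not among the 74 libraries of the series. The landraces, open pollinated farmer varieties from across Mexico, gave 17 WGBS and 17 WGS libraries. The teosinte plants (Zea mays ssp. parviglumis), all from 1 natural population near Palmar Chico in Mexico, gave 20 WGBS and 20 WGS libraries. Teosinte and landrace DNA came from the third leaf of greenhouse-grown seedlings, and no plant carried a treatment or an engineered allele. The tables give regions for a pair of populations and no values of single plants, so no spread between plants, no sequencing depth and no test over plants can be given. Regions are counted instead, with exact Clopper-Pearson 95% intervals that cover counting error only, since neighbouring regions are not independent.

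In plants, CG methylation is copied onto the new strand at each round of DNA replication by a maintenance methyltransferase, while CHG methylation is kept by chromomethylases in a loop with methylation of histone H3 at lysine 9. Transposable elements and other silent chromatin carry both marks, whereas the bodies of many expressed genes carry CG methylation with little CHG. In maize, CHH methylation depends largely on small RNAs and is concentrated at the borders between silent chromatin and genes.

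The label of the regions was checked first. None of the 464 members (0) lay inside a gene bin by position. Only bins to which the study had assigned a CG DMR were available, and members are by rule absent from that assignment. The 0 was therefore close to fixed in advance and does not test the label against all genes. However, 7 members stood on the study's list of DMRs in exons, which held 227 of the CG DMRs, and were there paired with Zm00001d000555, Zm00001d001611, Zm00001d006197, Zm00001d009349, Zm00001d020204, Zm00001d023094 and Zm00001d052992. The word intergenic goes against the data for these 7, of which 6 were lower in maize and 4 lay in a teosinte-maize sweep, a region of strong allele frequency differentiation. It also covers transposable elements, whose annotation was not used here.

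CHG differences accompanied CG differences more often between genes than near them. Of the 753 intergenic CG DMRs, 61.6% (95% interval 58 to 65.1) overlapped a CHG DMR, against 38.5% (35.1 to 42) of the 792 near a gene. Among intergenic DMRs that were lower in maize, 350 of 544 (64.3%, 60.2 to 68.4) had a CHG DMR, and among those higher in maize 114 of 209 did (54.5%, 47.5 to 61.4). Near genes the corresponding shares were 54.2% (246 of 454) and 17% (57 of 335). The intervals of the 2 directions overlapped between genes and lay far apart near genes. The 1 bp rule left no borderline cases: the smallest overlap of a member with CHG DMRs was 35 bp, with 21 members under 100 bp, and the nearest CHG DMR of an intergenic CG DMR without one was 157 bp away. A CG DMR without a CHG DMR can still hold a CHG difference below the threshold of the caller.

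At most members CG methylation was lower in modern maize. The direction, taken from the sign of the difference between population means, was lower in maize at 350 of 464 members (75.4%, 71.3 to 79.3) and higher at 114, compared with 64.7% of all teosinte-maize CG DMRs of known direction. Intergenic DMRs without CHG were lower in maize in 67.1% (194 of 289, 61.4 to 72.5), and the intervals of these 2 classes overlapped slightly. DMRs near genes with CHG reached 81.2% (246 of 303, 76.3 to 85.4), while those near genes without CHG stood at 42.8% (208 of 486, 38.4 to 47.3). Members lower in maize were the larger group on each of the 10 chromosomes, and their share ranged from 63.6% on chromosome 9 to 87.1% on chromosome 8.

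**Figure D1:**
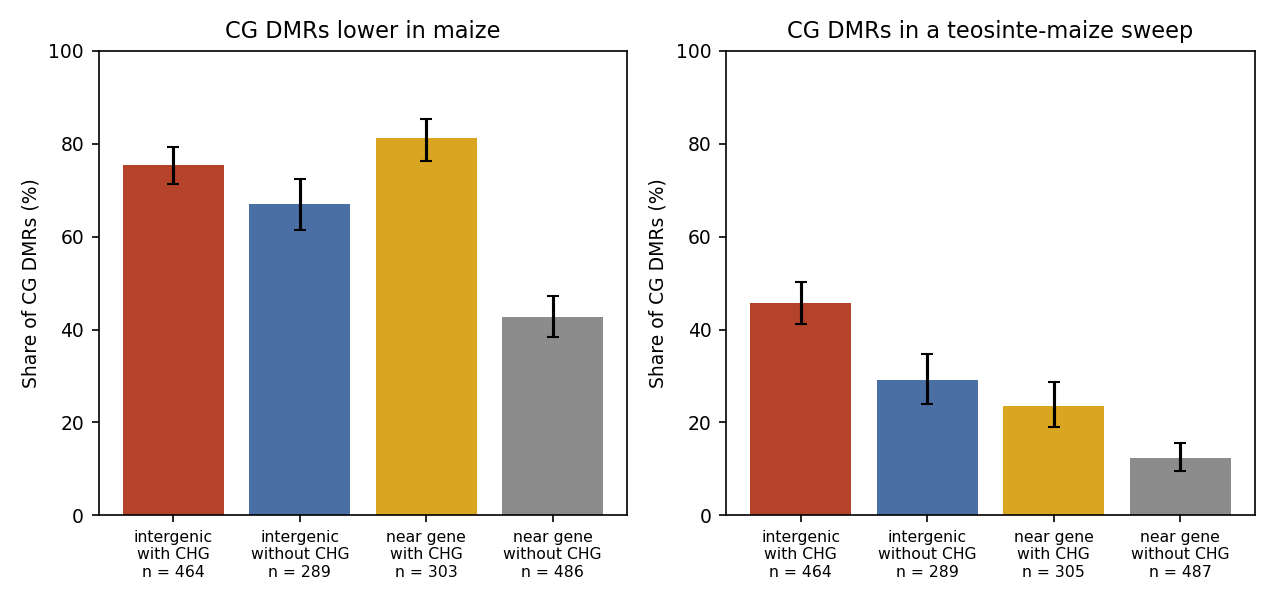
Share of teosinte-maize CG DMRs lower in modern maize (left) and overlapping a teosinte-maize sweep (right), in percent, for the 4 classes of CG DMRs. Bars are shares and lines exact 95% intervals; intergenic DMRs with CHG stand at 75.4% and 45.7%, against 42.8% and 12.3% for DMRs near genes without CHG.

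The members were longer than CG DMRs without a CHG DMR. Their median length was 413 bp (interval of the median 383 to 441), their quartiles were 255 and 628 bp, and they spanned 79 to 2726 bp and 220703 bp in all. Intergenic DMRs without CHG had a median of 309 bp (285 to 321), those near genes with CHG 383 bp (326 to 435, overlapping the interval of the members), those near genes without CHG 288 bp (269 to 311), and all CG DMRs 333 bp. A longer region has more chance to touch another region, and the part of length in the CHG overlap that defines the members was not tested. Members lower and higher in maize had similar lengths, with medians of 406 bp (372 to 445) and 432 bp (383 to 496).

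At most members the overlap in the 2 contexts was close to complete rather than marginal. A single CHG DMR accompanied 457 members and 7 members had 2. In total 461 of the 2372 teosinte-maize CHG DMRs were involved, 10 of them with 2 members. CHG DMRs covered 88.7% of all member bases, the median member was covered over 97.9% of its length, and the least covered over 13.3%. At 184 members (39.7%) the CG DMR lay wholly inside 1 CHG DMR, 51 held the whole CHG DMR, 222 overlapped it in part, and the other members were the 7 with 2 CHG DMRs. The CHG DMR was the longer of the pair at 329 members. Relative to the member, it started at a median of -29 bp and ended at a median of 16 bp. These are separate medians, and the CHG DMR passed both ends of the member only at the 184 that lay inside it. No member shared a start (0) or an end (0) with its CHG DMR. Coverage was alike for members lower (89.1% of bases) and higher in maize (87.3%). Whether the CHG difference went in the same direction as the CG difference was not examined.

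**Figure D2:**
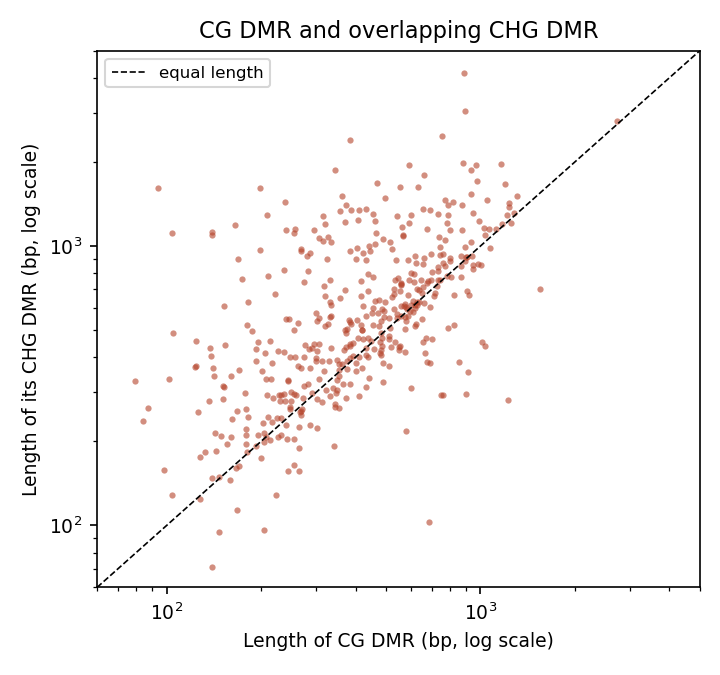
Length of the CHG DMR against length of the CG DMR, in bp on log axes, for the 457 intergenic CG DMRs with 1 CHG DMR; each point is a pair and the dashed line marks equal length. Most points lie above the line, and CHG DMRs reach 4176 bp.

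Individual members show the range of this arrangement. The longest lay on chromosome 5 from 45878484 to 45881210 (B73 AGPv4, 2726 bp), was lower in maize, and was covered over 99.2% by a CHG DMR of 2795 bp. It lay in a teosinte-maize sweep of 1520000 bp with an XP-CLR of 122, where XP-CLR is a composite likelihood score of allele frequency differentiation between 2 populations. The study's chromatin contact list joined it to Zm00001d014422. The second in length, on chromosome 7 from 86597721 to 86599266 (1545 bp), was covered over only 45.4% by a CHG DMR of 702 bp and ended 734 bp short of the nearest sweep. The third, on chromosome 5 from 189750310 to 189751616 (1306 bp), was wholly covered and lay in a sweep with an XP-CLR of 97.4. All 3 were lower in maize.

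The shortest members were 79 bp on chromosome 1 (137652238 to 137652317), 84 bp on chromosome 4 (120145040 to 120145124) and 87 bp on chromosome 7 (123023227 to 123023314). The first was covered over 44.3% by a CHG DMR of 328 bp. The others lay wholly inside CHG DMRs of 237 and 264 bp. The first and the second were lower in maize and lay in teosinte-maize sweeps. The one on chromosome 7 was higher in maize and lay outside teosinte-maize sweeps, but in a teosinte-landrace sweep with an XP-CLR of 84.7.

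Among the 7 members with 2 CHG DMRs, the longest was on chromosome 7 from 51105553 to 51106638 (1085 bp). Its CHG DMRs of 209 and 567 bp left an uncovered stretch between them, with 68.6% of the member covered. The next, on chromosome 6 from 91033728 to 91034772 (1044 bp), was similar, with CHG DMRs of 409 and 427 bp and 67.8% covered. At the third, on chromosome 3 from 78897962 to 78898997 (1035 bp), CHG DMRs of 925 and 153 bp covered 96.9%. This last region is the one that the exon list pairs with Zm00001d000555. All 3 were lower in maize.

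The members lay mainly in an inner stretch of the chromosomes, and the inner parts of maize chromosomes are rich in transposable elements and poor in genes. When each chromosome was cut into 10 equal parts, parts 3 to 6 held 300 of 464 members (64.7%, 60.1 to 69), compared with 56.1% (50.1 to 61.9) of intergenic DMRs without CHG, 41.3% of DMRs near genes with CHG and 27.7% of those near genes without CHG. Parts 3 to 6 lie off the centre and are those with the most members, so their joint share is only a description. The seventh part held 29 members (6.25%). The fifth part alone held 92 members (19.8%) and the eighth 19 (4.09%), against 10.5% and 8.88% of the other CG DMRs. Chromosome 4 held most members, 85, or 34.4 per 100 Mb, and also most CG DMRs of any class, 232, of which members made 36.6%. Members made 37.1% of the CG DMRs of chromosome 7, 33.6% on chromosome 10 and 22.1% on chromosome 5.

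Most members stood alone. The median distance between neighbours was 1785 kb (quartiles 380 and 5233 kb), and the smallest 310 bp. Joining members within 10 kb left 434 groups, of which 29 held more than 1 member and the largest held 3. The fullest windows of 1 Mb held 5 members each. These were the first window of chromosome 1, with 4 of 5 lower in maize and 0 in a sweep, the window from 75000001 to 76000000 on chromosome 3 (2 lower, 5 in a sweep), that from 106000001 to 107000000 on chromosome 4 (4 lower, 3 in a sweep) and that from 60000001 to 61000000 on chromosome 9 (1 lower, 5 in a sweep).

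**Figure D3:**
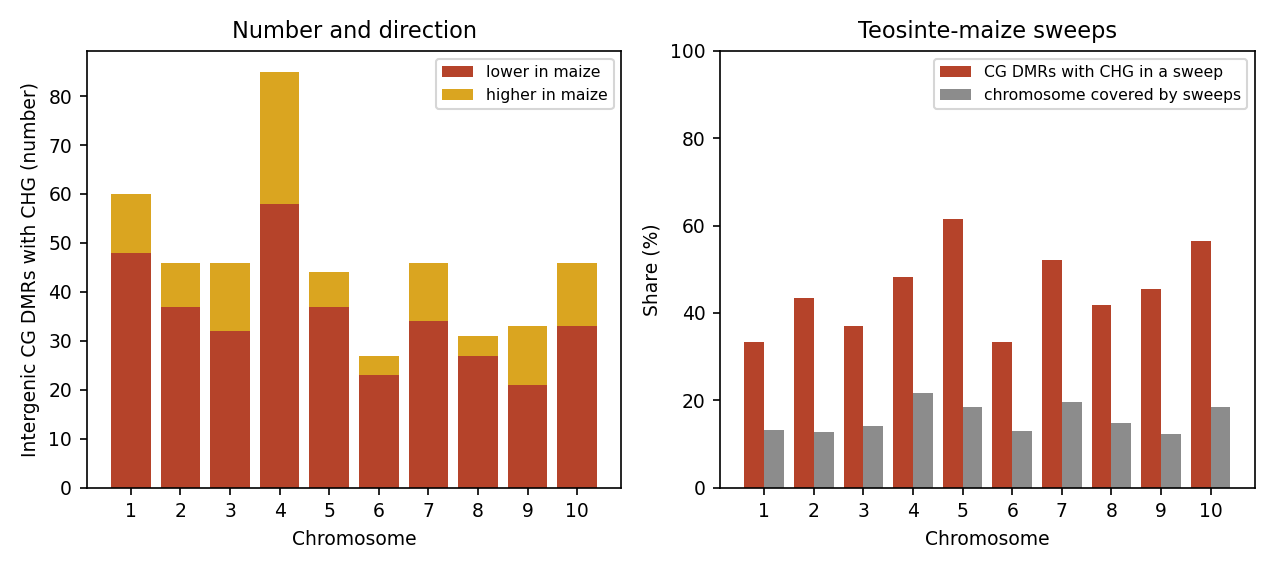
Left, number of intergenic CG DMRs with CHG on each chromosome, split by direction in modern maize. Right, percent of them in a teosinte-maize sweep beside the percent of the chromosome covered by such sweeps; chromosome 4 holds 85 members, and on every chromosome the share of members is above that of the sequence.

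Many of the members fell in regions of strong allele frequency differentiation between maize and teosinte. A teosinte-maize sweep was overlapped by 212 of 464 members (45.7%, 41.1 to 50.3), compared with 27.7% of all teosinte-maize CG DMRs, and sweeps covered 15.8% of the chromosomes. The share was 29.1% (84 of 289, 23.9 to 34.7) for intergenic DMRs without CHG, 23.6% (72 of 305, 19 to 28.8) near genes with CHG and 12.3% (60 of 487, 9.53 to 15.6) near genes without CHG. Over whole chromosomes the interval of the members did not overlap that of any of these classes, which differ in position along the chromosomes, as given below by parts. By chromosome the share of members in sweeps ranged from 33.3% on chromosomes 1 and 6 to 61.4% on chromosome 5.

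The sweep share was set out by direction and by length. Members lower in maize lay in a sweep in 44.6% (156 of 350, 39.3 to 49.9) and those higher in maize in 49.1% (56 of 114, 39.6 to 58.7), with overlapping intervals. Members up to the median length of all CG DMRs were in sweeps in 44.4% (79 of 178, 37 to 52), against 25.1% (42 of 167, 18.8 to 32.4) of intergenic DMRs without CHG of such length, and longer members in 46.5% (133 of 286, 40.6 to 52.5), against 34.4% (42 of 122, 26.1 to 43.6), where the intervals overlapped.

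Position moved strongly with the sweep share. In parts 3 to 6 of the chromosomes, 58% of members (174 of 300, 52.2 to 63.6) lay in a sweep, against 43.8% (71 of 162, 36.1 to 51.8) of intergenic DMRs without CHG and 46% (58 of 126, 37.1 to 55.1) of DMRs near genes with CHG, whose interval overlapped that of the members. In the other parts the shares were 23.2% (38 of 164, 16.9 to 30.4) for members, 10.2% (13 of 127, 5.56 to 16.9) for intergenic DMRs without CHG and 7.82% (14 of 179, 4.34 to 12.8) for DMRs near genes with CHG. Members and intergenic DMRs without CHG touched there at 16.9%. Within single parts the intervals of members and of intergenic DMRs without CHG overlapped in each of the 10 parts, with 54% (40.9 to 66.6) and 30.8% (14.3 to 51.8) in the third, and the order turned in the eighth (5.26% and 5.88%) and the last (9.09% and 11.5%). In the fifth part, members stood at 68.5% and DMRs near genes with CHG at 70.4%. Against all other CG DMRs, most of which lie near genes, the intervals were apart in parts 1 to 3 and overlapped in parts 4 to 10. The part of recombination and of gene density in these shares was not tested.

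**Figure D4:**
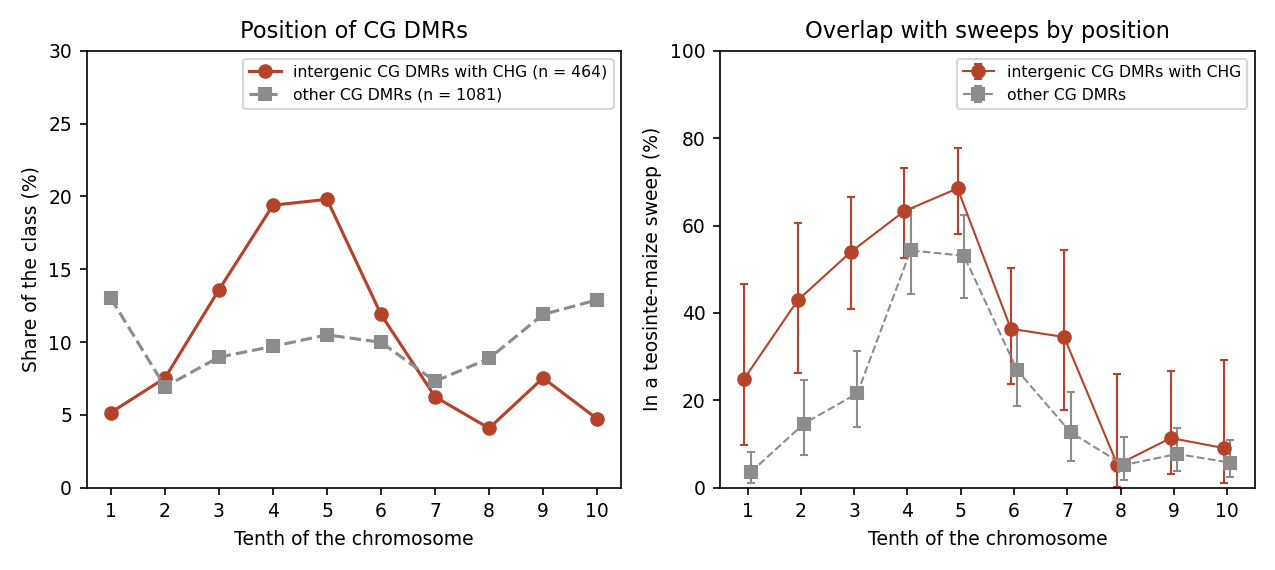
Left, percent of intergenic CG DMRs with CHG and of the other CG DMRs in each of 10 equal parts of a chromosome, summed over the 10 chromosomes. Right, percent of each in a teosinte-maize sweep, with exact 95% intervals; members peak in the fourth and the fifth parts, with 68.5% in a sweep in the fifth.

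Long sweeps held many of the members. Sweeps longer than 1 Mb held 77 members (16.6%, 13.3 to 20.3), against 13.1% (9.48 to 17.6) of intergenic DMRs without CHG, an overlapping interval, and 9.9% of all CG DMRs. Sweeps of up to 1 Mb held 135 (29.1%, 25 to 33.5), against 15.9% (11.9 to 20.7) and 17.8%. Members outside sweeps numbered 252, and their median distance to the nearest sweep was 292 kb (quartiles 109 and 857 kb).

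Of the 1330 teosinte-maize sweeps, 136 held a member. These sweeps had a median XP-CLR of 108 (range 61 to 195) and a median length of 560 kb. The 95 sweeps with another CG DMR but no member had 90.5 and 255 kb, and the 1099 sweeps with no CG DMR had 74.6 and 115 kb. Longer sweeps have more room for a member, so they were also set side by side by length. Among sweeps over 50 to 200 kb, the median XP-CLR was 73.4 in the 29 with a member and 72 in those without. Over 200 kb to 1 Mb, the medians were 108 in the 76 with a member and 92.9 in those without. Over 1 Mb, they were 142 in the 31 with a member and 154 in those without.

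The sweep with the most members, on chromosome 3 from 73260001 to 79785000, was 6.53 Mb long, had an XP-CLR of 173 and held 9, of which 4 were lower in maize. A sweep on chromosome 7 from 58790001 to 68335000 held 6 members, 5 of them lower. A sweep on chromosome 9 from 58580001 to 61495000 held 5, of which only 1 was lower in maize, unlike most members elsewhere. The highest XP-CLR of any sweep with a member was 195, rank 11 of all, in a sweep of 1045000 bp on chromosome 8 that held 4 members, all lower in maize. The first 3 of these, at 98628362 to 98628575, 98909068 to 98909486 and 98909825 to 98910004, were covered by CHG DMRs over 99.1%, 100% and 96.6% of their length. The same stretch was a sweep between landraces and teosinte, with an XP-CLR of 162.

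The members were then followed through the landraces, which stand between teosinte and modern maize in the history of the crop. The study found slightly higher methylation in landraces and names lower sequencing depth as a possible reason. The part of depth, and of the greater length of the members, in the landrace overlaps was not tested. The comparisons share plants: teosinte enters both the teosinte-maize and the teosinte-landrace DMRs, and modern maize both the teosinte-maize and the landrace-maize DMRs, so each is given on its own. A teosinte-landrace CG DMR overlapped 117 members (25.2%, 21.3 to 29.4), compared with 17.2% of all teosinte-maize CG DMRs, and a teosinte-landrace CHG DMR 109 (23.5%, 19.7 to 27.6), compared with 12.5%. Members have a CHG DMR by rule, so all CG DMRs are not a like set for CHG. DMRs near genes with CHG stood at 16.7% (12.7 to 21.4) and 19% (14.8 to 23.9), both intervals overlapping those of the members. Intergenic DMRs without CHG stood at 17.3% (13.1 to 22.2), overlapping slightly, and 7.27% (4.55 to 10.9), apart. At the 117 members with a teosinte-landrace CG DMR, CG methylation was lower in landraces at 94, and it was lower in modern maize at 94. A landrace-maize CG DMR overlapped 39 members (8.41%, 6.05 to 11.3), compared with 5.44% of all, and a landrace-maize CHG DMR 26 (5.6%, 3.69 to 8.1), compared with 3.17%. Near genes with CHG the shares were 7.54% (4.84 to 11.1) and 6.56% (4.05 to 9.95), both intervals overlapping those of the members. For intergenic DMRs without CHG they were 4.5% (2.42 to 7.57), overlapping, and 0.346% (0.00876 to 1.91), apart. No landrace DMR in either context was found at 276 members (59.5%, 54.9 to 64), compared with 73.5% of all. Near genes with CHG the share was 69.5% (64 to 74.6), an interval that met that of the members at 64%. For intergenic DMRs without CHG it was 75.8% (70.4 to 80.6), apart. For sweeps, 170 members (36.6%, 32.2 to 41.2) overlapped a teosinte-landrace sweep, compared with 24.1% of all CG DMRs, and 134 (28.9%, 24.8 to 33.2) a landrace-maize sweep, compared with 22.5%. Among intergenic DMRs without CHG the shares were 29.1% (23.9 to 34.7) and 26% (21 to 31.4), both intervals overlapping those of the members. Near genes with CHG they were 17.7% (13.6 to 22.5), apart, and 23.3% (18.7 to 28.4), overlapping.

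Teosinte-landrace DMRs in both contexts as well as sweeps of both teosinte comparisons were overlapped by 33 members (7.11%, 4.95 to 9.84). The share was 1.97% (0.725 to 4.23) of DMRs near genes with CHG, 2.72% of all teosinte-maize CG DMRs and 0.692% of intergenic DMRs without CHG. The last 2 are not like sets, because a landrace CHG DMR is required here and members have a CHG DMR by rule. Each of the 4 overlaps taken singly was also more frequent among the members than among all CG DMRs. The longest, on chromosome 1 from 129828546 to 129829765 (1219 bp), was lower in maize, and its teosinte-landrace CG DMR had the same start and end. Its teosinte-landrace CHG DMR was 1204 bp long, and it lay in sweeps with an XP-CLR of 102 (teosinte-maize) and 127 (teosinte-landrace). The region on chromosome 3 from 78897962, described above, was the second. A member on chromosome 4 from 108158698 to 108159691 (993 bp) was higher in maize, was covered wholly by a CHG DMR of 1225 bp, and lay in the sweep of rank 12, with an XP-CLR of 193. Members on chromosome 5 from 152440333 to 152441279 (946 bp) and from 114207334 to 114208106 (772 bp) were lower in maize, in sweeps with an XP-CLR of 128 and 167.

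CHH DMRs seldom overlapped the members. A teosinte-maize CHH DMR overlapped 4 members (0.862%, 0.235 to 2.19), compared with 0.712% of all teosinte-maize CG DMRs, a share near that of the whole. Within 100 bp of a CHH DMR lay 21 members (4.53%, 2.82 to 6.84), compared with 3.17% of all CG DMRs, a share inside that interval. DMRs near genes with CHG stood higher, at 5.9% (3.53 to 9.17), and intergenic DMRs without CHG at 1.73% (0.564 to 3.99). Both intervals overlapped that of the members. The longest of the 4, on chromosome 3 from 80349013 to 80349288 (275 bp), was higher in maize and lay within a CHG DMR of 316 bp and a CHH DMR of 1007 bp. The next 2, both on chromosome 5 and lower in maize, were 140 bp (54302860 to 54303000) and 137 bp (96733279 to 96733416) long, with CHH DMRs of 95 and 177 bp.

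Both DMRs that the study examined by reporter assay were members. The tb1-DMR lies upstream of tb1, which encodes a transcription factor that represses the growth of side shoots. It was found on chromosome 1 from 270512522 to 270513056 (534 bp), lower in maize, and a CHG DMR of 453 bp (270512590 to 270513043) covered 84.8% of it. It lay in a teosinte-maize sweep from 270480001 to 270595000 with an XP-CLR of 67.2, rank 990 of 1330, below the median of 77.2 of all teosinte-maize sweeps. It had no called teosinte-landrace CG DMR, but a teosinte-landrace CHG DMR of 329 bp (270512714 to 270513043) that ended at the base where the teosinte-maize CHG DMR ended. The study describes this region as varying in CG methylation among landraces, so the missing CG call is no absence of a difference.

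The vgt1-DMR lies near vgt1, a flowering time locus upstream of the transcription factor gene ZmRAP2.7. It was found on chromosome 8 from 135969172 to 135969381 (209 bp), lower in maize, wholly inside a CHG DMR of 293 bp (135969131 to 135969424). It was in no sweep, and the nearest teosinte-maize sweep was 1325619 bp away. No called landrace DMR overlapped it. The study nevertheless describes this region as low in methylation in landraces as well as modern maize, and high in teosinte. The absence of a called DMR is therefore no absence of a difference.

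**Figure D5:**
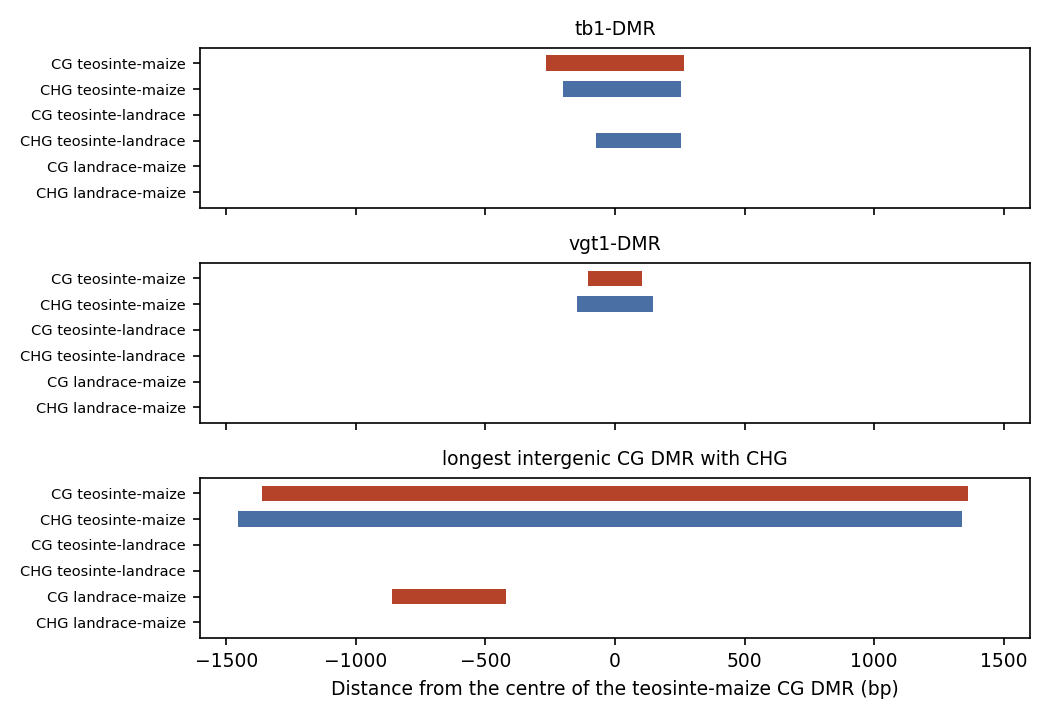
DMRs within reach of the tb1-DMR, the vgt1-DMR and the longest intergenic CG DMR with CHG, as distance in bp from the centre of each teosinte-maize CG DMR; each row is a context and comparison, CG in red and CHG in blue. The tb1-DMR has a called teosinte-landrace DMR in CHG of 329 bp and none in CG, and at the vgt1-DMR of 209 bp neither was called.

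The study's list of contacts, which joins intergenic CG DMRs lower in maize to genes through chromatin loops at active histone marks in maize shoots, held 42 DMRs. Of these 27 were members (64.3%), the same percentage as members make of all intergenic CG DMRs lower in maize (350 of 544), so the list did not differ from its source in this respect. The 27 members were joined to 31 genes, 5 members to more than 1 gene and 9 only to sequence on another chromosome. A teosinte-maize sweep overlapped 12 of the 27 (44.4%), close to the 44.6% of all members lower in maize. The list attaches a flowering trait to a contact gene of 4 members, all lower in maize. They were the vgt1-DMR, joined to Zm00001d010986, a member on chromosome 1 from 262589 to 263454 (865 bp), joined to Zm00001d014109, and members on chromosome 4 from 101147221 to 101147783 (562 bp) and from 217438712 to 217438848 (136 bp), joined to Zm00001d050565 and Zm00001d053163. The contact with Zm00001d014109 was with sequence on another chromosome, and the other 3 were within the chromosome of the member. CHG DMRs covered the member on chromosome 1 over 95.3% and the other 3 over 100%. The member joined to Zm00001d050565 lay in a teosinte-maize sweep with an XP-CLR of 144, rank 75, and the other 3 lay outside such sweeps. The member on chromosome 1 overlapped teosinte-landrace DMRs of 507 bp in CG and 523 bp in CHG.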

How the data were processed

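The deposited tables held 6389 DMRs and the sweeps of 3 comparisons, as positions on B73 AGPv4. The authors mapped WGBS reads with Bowtie2 to a genome carrying each plant's SNPs, took methylation calls from Bismark and used metilene to find DMRs for each pair of populations. They called SNPs from WGS reads, and the submitters' processing notes name BWA, Bismark, Picard and GATK 4. The deposited XP-CLR score was computed by the authors in windows that were merged and kept where extreme. It was compared only between sweeps of 1 comparison. A minimum difference in CG and CHG leaves smaller differences out of the DMRs. Depth is not in these tables.

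From these tables overlaps of at least 1 bp were counted with Python 3.11.15, pandas 2.3.3 and numpy 2.4.6, intervals were computed with scipy 1.17.1, figures were drawn with matplotlib 3.10.9, and overlaps were checked with bedtools 2.31.1 and on simulated intervals. DMR starts were taken as counting from 0, sweep starts from 1. Chromosome ends were the largest positions in the tables. From the study's supplements only positions, gene IDs, traits and the sign of the difference in population means were used, with no sign for 3 of the 1545 CG DMRs. The 38 gene IDs matched 0 entries of the RefSeq table, which is of another assembly.

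The members and lists were chosen with earlier results of these data known, so no hypothesis test was run. Regions named in the text were the tb1-DMR and vgt1-DMR, the 3 longest and 3 shortest members, 3 members in the sweep of highest XP-CLR, up to 5 by length with landrace DMRs in both contexts and both teosinte sweeps, up to 3 with most CHG DMRs, up to 3 with a CHH DMR, the fullest windows of 1 Mb, and members joined to flowering time genes. The fullest sweeps were named after their values were seen.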

Additional observations from a re-analysis of the deposited data

How the results depend on the processing

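Of 50 values of 10 results under alternatives, 42 stayed inside the 95% interval of the reported value or, for the number of members, within 1.5 times of it. These included every value with starts counting from 1 and every value without members on the exon list. For the share of bases covered by CHG DMRs, the interval was computed as for a share of members. It is no spread over bases, so the placing of that result's values inside or outside it is only a rough guide. Limiting sweeps to those at or above the median XP-CLR left 40.3% of members in a teosinte-maize sweep, against 17% of other CG DMRs, and leaving out sweeps longer than 1 Mb left 29.1%, against 13%. Requiring the landrace DMR to cover at least 0.5 of the member left 17.2% with a teosinte-landrace CG DMR and 18.3% with a CHG DMR. A CHH DMR within 100 bp was found at 4.53% of members, compared with 3.17% of all CG DMRs and 5.9% of DMRs near genes with CHG. Counting members within 10 kb as 1 gave a median length of 454 bp, and keeping only members covered over at least 0.5 of their length gave 92.4% of bases covered by CHG. The direction of landraces against teosinte was lower at 80.3% of the 117 members with such a DMR. Leaving out long sweeps or chromosome 4 was chosen after seeing the data; without chromosome 4, 379 members remained, 77% lower in maize and 45.1% in a sweep. No paired analysis was possible because the tables give no values of single plants, and no plant could be left out. The number of plants and the coverage of cytosines limit which DMRs were called, and their effect was not tested.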
